A study of Homo sapiens with 12 samples.

Results

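The 7 genes CAMK2N1, TGM3, CBLN2, OPRK1, LRRN1, PLA2G2A and C11ORF92 had some of the largest falls in R1881 relative to vehicle in LNCaP, an androgen-dependent cell line long established from a human prostate cancer. The members were chosen by their measured fall in R1881 under both siRNAs, so that response is described here without a test. Each gene had 1 probe by its symbol, which gave 7 of the 47323 probes on the array, and all 7 were among the 17121 genes measured after a filter on dim probes. A probe passed the filter when its signal was above the array's negative controls, with a detection p-value under 0.05, on at least 3 of the 12 arrays. The members passed through their vehicle arrays, where they were high, so passing is no evidence about them.

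The arrays came from 4 groups of 3: ERRγ siRNA with R1881, ERRγ siRNA with vehicle, control siRNA with R1881, and control siRNA with vehicle. R1881 is a synthetic androgen that binds the androgen receptor, and it was given at 10 nM for 72 h, with ethanol as the vehicle. The ERRγ siRNA was directed against the estrogen-related receptor gamma, an orphan nuclear receptor encoded by ESRRG, and was transfected 48 h before the treatment. Every group shared the line, the phenol red-free medium with 2% steroid-deprived serum, and a transfection. The labels call the samples triplicates and do not say that they were separate cultures, so the p-values cover the spread among these arrays alone, and that spread may be technical.

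Androgen bound to its receptor both raises and lowers the expression of many genes in luminal prostate cells. Genes that fall are less well understood than those that rise. They can be direct targets from which the receptor removes activity, or can fall later through other factors. The members have different known roles. CAMK2N1 encodes an inhibitor of the calcium- and calmodulin-dependent kinase CaMKII. OPRK1 encodes the kappa opioid receptor, a G protein-coupled receptor for dynorphin. PLA2G2A encodes a secreted phospholipase A2 that releases fatty acids from phospholipids, and TGM3 a calcium-dependent transglutaminase that cross-links proteins of the epidermis and hair. CBLN2 encodes a cerebellin, a secreted protein that bridges presynaptic neurexins and postsynaptic glutamate receptors. LRRN1 encodes a membrane protein with leucine-rich repeats that is known from the nervous system. C11ORF92 is the older name of COLCA1, a gene of a colorectal cancer risk locus.

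Promoter windows are shown for 3 members, picked because they hold the motifs nearest to androgen action or to a core promoter. The windows of CBLN2 and LRRN1 held neither AGAACA nor TATAAA and are not printed. Sequences are from RefSeq on GRCh38.p14, each 5′ to 3′ on the gene's strand from 250 bases before to 50 after an annotated start. PLA2G2A and C11ORF92 hold AGAACA, a short motif bound by the androgen receptor, in capitals. TGM3 holds TATAAA, the TATA box, in capitals on either strand, with overlapping matches. The windows lie at chr1:19979610-19979909 (minus strand) for PLA2G2A, chr11:111304999-111305298 (minus strand) for C11ORF92 and chr20:2295751-2296050 (plus strand) for TGM3.
PLA2G2A: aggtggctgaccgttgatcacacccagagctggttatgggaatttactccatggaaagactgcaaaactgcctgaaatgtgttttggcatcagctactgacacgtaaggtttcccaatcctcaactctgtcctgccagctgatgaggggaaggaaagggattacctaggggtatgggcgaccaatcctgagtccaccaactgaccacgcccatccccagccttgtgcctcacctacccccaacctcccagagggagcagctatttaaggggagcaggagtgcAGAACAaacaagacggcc
C11ORF92: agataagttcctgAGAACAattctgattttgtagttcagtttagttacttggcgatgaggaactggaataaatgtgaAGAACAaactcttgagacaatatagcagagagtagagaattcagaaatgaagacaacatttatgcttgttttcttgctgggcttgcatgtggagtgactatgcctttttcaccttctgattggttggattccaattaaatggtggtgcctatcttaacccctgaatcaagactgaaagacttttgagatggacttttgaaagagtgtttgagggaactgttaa
TGM3: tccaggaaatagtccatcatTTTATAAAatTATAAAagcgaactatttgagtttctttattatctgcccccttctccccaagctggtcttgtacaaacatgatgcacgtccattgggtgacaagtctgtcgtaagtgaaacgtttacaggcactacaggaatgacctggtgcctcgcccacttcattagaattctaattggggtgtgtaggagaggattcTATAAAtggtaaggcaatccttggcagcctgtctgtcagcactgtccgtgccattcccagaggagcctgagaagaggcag

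With the start at position 0, AGAACA began at position 32 in the PLA2G2A window and at -237 and -173 in that of C11ORF92. One of the TATAAA matches of TGM3 began at -30, near the usual place of a TATA box, and the others at -230, -228 and -220. Both strands were searched for every motif. RefSeq windows were at hand for 5 of the 7 members, 11 windows in all, and CAMK2N1 and OPRK1 are only named here. AGAACA was found in windows of 2 of these 5 members, while 14.8% of the 35116 RefSeq windows of this length held it. CACCTG, an E-box that SNAI2 can bind, was found in 3 members (C11ORF92, CBLN2 and LRRN1) and in 20.6% of all windows. TATAAA was found in 2 members (C11ORF92 and TGM3) and in 11.5% of all windows. For C11ORF92 both of these motifs lay in windows other than the printed one. TGTTTAC, the motif of FOXA factors, was found in 1 member (PLA2G2A, in another of its windows) and in 3.42% of all windows. No member window held the palindromic androgen response element or the ERR motif TCAAGGTCA, which 0.00285% and 0.353% of all windows held. Members with several windows had more chances of a match, and a match is a description of letters only.

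On the arrays the androgen response was visible in known target genes. KLK3, which encodes prostate-specific antigen, was 5.20 ± 0.14 log2 units higher in R1881 with ERRγ siRNA and 5.48 ± 0.14 higher with control siRNA (SE). FKBP5, an androgen-induced immunophilin, was 3.82 ± 0.094 and 4.08 ± 0.094 higher in the same comparisons. Of 10 luminal prostate markers, 9 were detected on all 12 arrays, and KLK2 was detected on 6. KRT5, CHGB, SYP, DES and PTPRC, which mark basal, neuroendocrine, muscle and immune cells, were detected on no array. The lists of these cell types also held genes detected on all 12 arrays: ENO2 and INSM1 (neuroendocrine), VIM, COL1A1 and ACTA2 (stromal) and CD68 (immune), while LAMB3 (basal) was detected on 6. Arrays detected 18698 to 20536 of the 47323 probes. Arrays of 1 group correlated at 0.990 to 0.995 over the measured genes. The target of the siRNA could not be checked: the 3 ESRRG probes were detected on 0 of the 12 arrays, with a lowest detection p of 0.0623. Direction of the siRNA comparisons therefore rests on the labels.

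CAMK2N1, the CaMKII inhibitor, had raw intensities of 426, 360 and 368 with ERRγ siRNA and R1881, against 6763, 6576 and 6692 with ERRγ siRNA and vehicle. With control siRNA they were 497, 356 and 395 in R1881, against 8255, 7747 and 6876 in vehicle. The lowest vehicle array was 13.2 times the highest R1881 array, and the probe was still detected on all 6 R1881 arrays. After background correction and normalization the log2 change was -4.55 with ERRγ siRNA and -4.44 with control siRNA (SE 0.15), which is 23.4- and 21.7-fold lower. CAMK2N1 was thus strongly lower yet clearly above background in every androgen-treated sample.

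OPRK1, the kappa opioid receptor, had raw intensities of 119, 112 and 112 with ERRγ siRNA and R1881, against 590, 531 and 599 with ERRγ siRNA and vehicle. In the control siRNA groups they were 109, 108 and 108 in R1881, against 710, 540 and 478 in vehicle. The R1881 arrays lay close together and just above the background level of the arrays, which ran from 89.7 to 96.4. The log2 change was -3.96 with ERRγ siRNA and -4.04 with control siRNA (SE 0.12). All 6 R1881 arrays detected the probe at p under 0.05, and 5 of 6 did so at p under 0.01.

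PLA2G2A, the secreted phospholipase, had raw intensities of 95.8, 87.3 and 98.4 with ERRγ siRNA and R1881, against 373, 393 and 392 with ERRγ siRNA and vehicle. With control siRNA they were 98.1, 99.3 and 99.4 in R1881, against 433, 325 and 295 in vehicle. PLA2G2A was detected on all 6 vehicle arrays and on 0 of the 6 R1881 arrays. Its fall is therefore given only as a bound: at least 13.3-fold lower with ERRγ siRNA and at least 11.5-fold lower with control siRNA, taking the dimmest detected signal of each R1881 array as the level. These bounds and the fitted log2 values of -4.07 and -3.66 all hold only for the background offset of 16. With an offset of 50 the fitted log2 values were -2.74 with ERRγ siRNA and -2.48 with control siRNA.

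TGM3, the epidermal transglutaminase, had raw intensities of 112, 117 and 116 with ERRγ siRNA and R1881, against 809, 692 and 785 with ERRγ siRNA and vehicle. Under control siRNA the values were 117, 125 and 117 in R1881, against 1011, 758 and 802 in vehicle. TGM3 kept a small signal that was detected on all 6 R1881 arrays, also at p under 0.01. The log2 change was -4.39 with ERRγ siRNA and -4.24 with control siRNA (SE 0.098).

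CBLN2, the synaptic organizer, had raw intensities of 92.6, 98.8 and 106 with ERRγ siRNA and R1881, against 633, 650 and 664 with ERRγ siRNA and vehicle. With control siRNA they were 104, 114 and 96.5 in R1881, against 647, 477 and 454 in vehicle. The R1881 arrays straddled the limit of detection: 1 of 3 detected CBLN2 with ERRγ siRNA and 2 of 3 with control siRNA. The log2 change was -4.85 with ERRγ siRNA and -4.07 with control siRNA (SE 0.18), the widest error of the 7.

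LRRN1, the leucine-rich repeat protein, had raw intensities of 105, 108 and 104 with ERRγ siRNA and R1881, against 528, 471 and 558 with ERRγ siRNA and vehicle. With control siRNA they were 119, 111 and 110 in R1881, against 538, 454 and 424 in vehicle. LRRN1 was detected on all 6 R1881 arrays at p under 0.05, and on 3 of them, those with control siRNA, at p under 0.01. The log2 change was -4.17 with ERRγ siRNA and -3.51 with control siRNA (SE 0.13).

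C11ORF92 had raw intensities of 106, 105 and 99.7 with ERRγ siRNA and R1881, against 452, 422 and 440 with ERRγ siRNA and vehicle. With control siRNA they were 93.1, 95.6 and 94.9 in R1881, against 498, 357 and 333 in vehicle. C11ORF92 was detected on 2 of 3 R1881 arrays with ERRγ siRNA and on 0 of 3 with control siRNA. The log2 change was -3.97 ± 0.10 (SE) with ERRγ siRNA, and with control siRNA the gene was at least 13.3-fold lower.

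**Figure D1:**
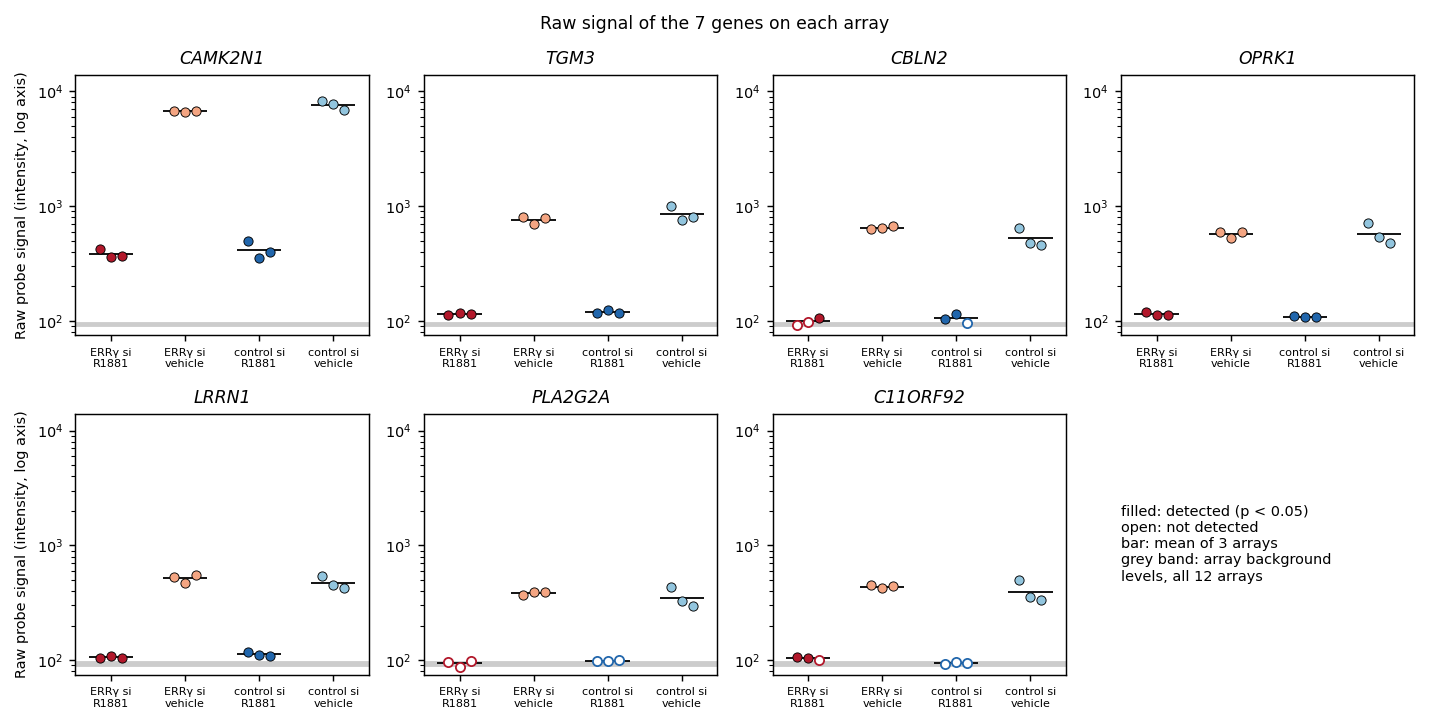
Raw probe intensity (log axis) of the 7 genes on each of the 12 arrays, with R1881 left of vehicle for each siRNA. Filled points were detected, open points were not, bars are means of 3 arrays, and the grey band spans the background levels of the arrays. Every vehicle point lies above every R1881 point in all 7 panels, and PLA2G2A has open points only in R1881.

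R1881 and vehicle arrays did not overlap for any of the 7 genes, the contrast on which they were selected, so this is a description only. The share of all genes without overlap was not counted. Over all 17121 genes, 20.4% were called lower in R1881 with ERRγ siRNA and 22.3% with control siRNA by limma at an adjusted p under 0.05. Those shares of calls are a different measure from overlap and are given as background, and nothing about the members follows from them. The ratio of the lowest vehicle to the highest R1881 signal ran from 2.97 for PLA2G2A to 13.2 for CAMK2N1. The arrays measured RNA from whole cultures, so fewer cells with a transcript and less of it per cell cannot be told apart.

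The members ranked 2nd to 8th of all genes by their fall with ERRγ siRNA and 2nd to 9th with control siRNA. DDC, which encodes aromatic L-amino acid decarboxylase, ranked 1 in both, with log2 changes of -5.75 and -5.47. It was the one gene outside the set with a larger fall than the smallest member fall under both siRNAs. Just inside the limit was LRRN1 with control siRNA, at -3.51, and OPRK1 with ERRγ siRNA, at -3.96. GASK1B was just outside with ERRγ siRNA, at -3.92, and between the members with control siRNA, where it ranked 7th at -3.79. BCHE, which encodes butyrylcholinesterase, was outside in both, at -3.88 with ERRγ siRNA and -3.51 with control siRNA.

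How complete the fall was can be read from the signal left in R1881 as a percentage of the vehicle mean, after subtracting each array's background. The median over the 7 genes and both siRNAs was 2.71%. CAMK2N1 kept 4.39% ± 0.55 with ERRγ siRNA and 4.27% ± 0.97 with control siRNA (SD, n = 3 each). TGM3 kept 2.90% ± 0.29 and 3.36% ± 0.64, in the same order of siRNAs. OPRK1 kept 3.82% ± 0.96 with ERRγ siRNA and 2.97% ± 0.37 with control siRNA. For these 3 genes a remainder was detected on every R1881 array.

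LRRN1 kept 2.36% ± 0.45 with ERRγ siRNA and 4.98% ± 1.52 with control siRNA (SD, n = 3 each). CBLN2 kept 0.577% ± 1.15 with ERRγ siRNA and 2.52% ± 2.29 with control siRNA, and single arrays ran from -0.482% to 4.79%. The SD of CBLN2 was above its mean with ERRγ siRNA and close to its mean with control siRNA, so a remainder was not detectable on every array. C11ORF92 kept 2.23% ± 0.95 with ERRγ siRNA and 0.128% ± 0.47 with control siRNA. PLA2G2A was at -0.665% ± 2.15 with ERRγ siRNA and 1.86% ± 0.37 with control siRNA, without detection on any of these arrays. Over the 7 genes and 6 R1881 arrays, 29 of 42 measurements were detected at p under 0.05, and 21 at p under 0.01. CAMK2N1, TGM3, OPRK1 and LRRN1, detected on all 6 R1881 arrays, thus kept a measurable signal, while PLA2G2A was detected on none of them.

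**Figure D2:**
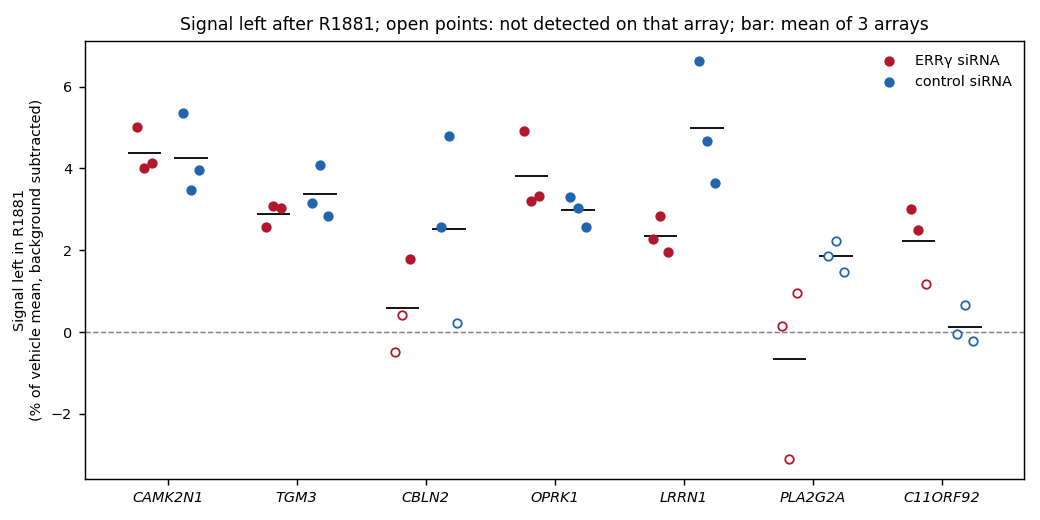
Background-subtracted signal in R1881 as a percentage of the vehicle mean (linear axis), 1 point per R1881 array, ERRγ siRNA left of control siRNA, bars as means of 3 arrays. CAMK2N1, TGM3, OPRK1 and LRRN1 have only filled (detected) points above 0, while the PLA2G2A points are all open.

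The size of the fall depended on how background was treated, and least so for CAMK2N1. CAMK2N1 was at -4.55 after correction with an offset of 16 and at -4.32 in the authors' normalized table with ERRγ siRNA, and at -4.44 and -4.27 with control siRNA. PLA2G2A was at -4.07 and -1.30 in the same pair of settings with ERRγ siRNA, and at -3.66 and -1.15 with control siRNA. C11ORF92 was at -3.97 and -1.43 with ERRγ siRNA, and at -4.03 and -1.30 with control siRNA. Under R1881 the authors' values of PLA2G2A averaged 7.08 with ERRγ siRNA and 7.09 with control siRNA on the log2 scale, close to those of C11ORF92 at 7.10 and 7.08.

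The ranks moved with it. In the authors' table CAMK2N1 was 2nd in both comparisons, against 3rd with ERRγ siRNA and 2nd with control siRNA after correction with an offset of 16, while PLA2G2A was 48th with ERRγ siRNA and 67th with control siRNA. TGM3 was 14th and 9th, CBLN2 16th and 25th, and OPRK1 23rd and 22nd, in the same order of siRNAs. LRRN1 was 26th with ERRγ siRNA and 31st with control siRNA, and C11ORF92 39th and 46th. All 7 still fell under each of these settings. For the 6 members near background in R1881, the fitted size of the fall therefore holds only for the setting it is given with.

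**Figure D3:**
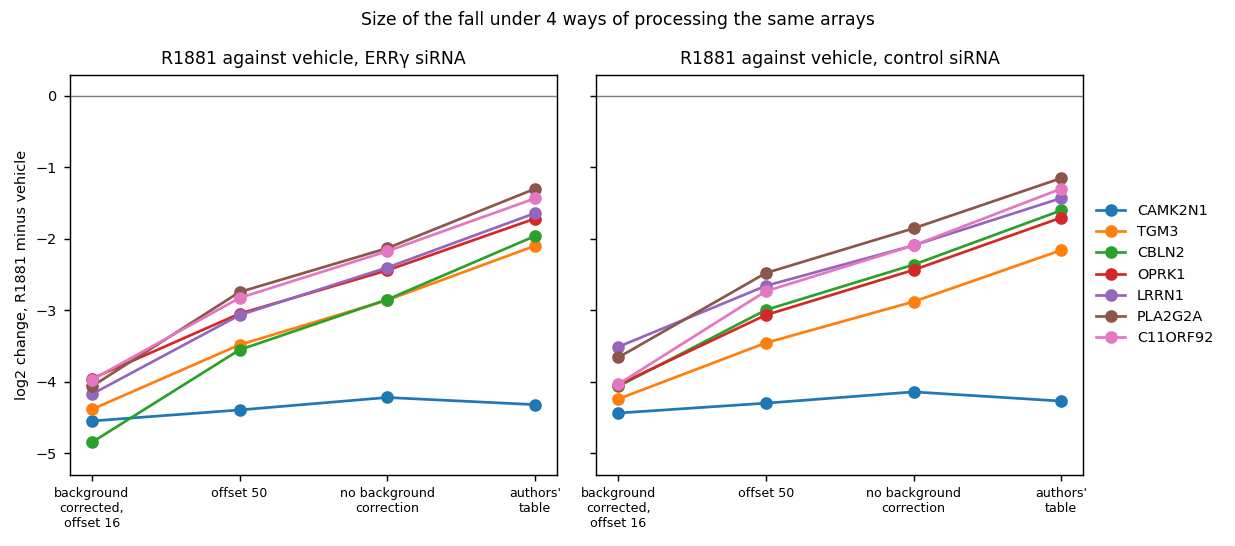
Fitted log2 change, R1881 minus vehicle, of each gene under 4 ways of processing the same arrays, with ERRγ siRNA left and control siRNA right. Lines only join values of 1 gene. CAMK2N1 stays between -4.55 and -4.14, while PLA2G2A moves to -1.30 and -1.15 in the authors' table.

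Whether the siRNA moved the members is a comparison that their choice did not use directly. The comparisons within vehicle and within R1881 still share group means with the falls that chose the members. Only the average over treatments shares no contrast with those falls. No member was called in vehicle, in R1881 or averaged over both treatments, by limma with Benjamini-Hochberg adjustment over 17121 genes. The share of all genes called was 0.0292% averaged over treatments (5 genes, all lower with ERRγ siRNA), 0.263% in vehicle and 0% in R1881. At an unadjusted p under 0.05 the comparisons held 2 members averaged over treatments, 3 in vehicle and 3 in R1881. C11ORF92 is among them in each comparison, although no control siRNA R1881 array detected it. Over all genes that share was 10.8% averaged, 15.5% in vehicle and 6.13% in R1881. A member that missed the threshold is not thereby shown to be equal between the siRNAs, and the intervals below give the sizes left possible.

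CBLN2 differed most between siRNAs in vehicle. Its normalized log2 signal was 9.23, 9.32 and 9.28 with ERRγ siRNA, against 8.96, 8.81 and 8.77 with control siRNA. These normalized values did not overlap, and the difference was 0.43 (95% interval 0.04 to 0.82, adjusted p = 0.277). The raw intensities did overlap, at 633, 650 and 664 with ERRγ siRNA against 647, 477 and 454 with control siRNA. How many of all genes had no overlap between siRNAs in vehicle was not counted. In 3 other settings CBLN2 was called: with a background offset of 50 (adjusted p = 0.0258), without background correction (0.0165) and in the authors' normalized table (0.0153). Over the remaining settings and with single arrays left out, its adjusted p ran up to 0.512. In R1881 the CBLN2 difference was -0.35 (-0.74 to 0.03), and averaged over treatments it was 0.04 (-0.24 to 0.31).

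C11ORF92 was at 0.23 (95% interval 0.01 to 0.45) in vehicle, with an adjusted p of 0.305 by limma. In R1881 it was detected on 0 of 3 control siRNA arrays, so no difference is given there or on average. TGM3 was lower on average, at -0.20 (-0.34 to -0.05, adjusted p = 0.367). PLA2G2A was at 0.22 (0.01 to 0.43) in vehicle, with an adjusted p of 0.297. LRRN1 was at -0.46 (-0.73 to -0.18) in R1881, where its adjusted p was 0.670, and at 0.20 (-0.07 to 0.48) in vehicle. Its R1881 signals were near background, so the size of that difference depended on the setting. It was -0.22 with an offset of 50 and -0.07 in the authors' table. CAMK2N1 and OPRK1 had intervals that held 0 in all 3 comparisons. The CAMK2N1 average was -0.13 (-0.36 to 0.11) and that of OPRK1 0.10 (-0.08 to 0.28).

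**Figure D4:**
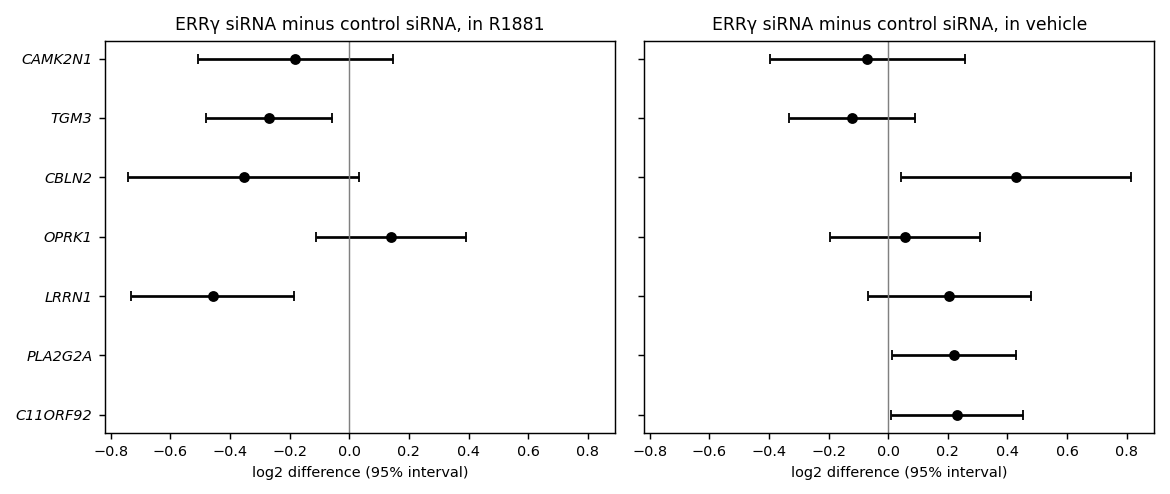
Log2 difference between ERRγ siRNA and control siRNA for each gene (points) with 95% intervals from the fit over all genes (bars), in R1881 at left and in vehicle at right. PLA2G2A and C11ORF92 are not drawn in R1881, where at least 1 group had no array that detected them. CBLN2 in vehicle, at 0.43, and LRRN1 in R1881, at -0.46, lie furthest from 0 among the points drawn, and no gene passed the adjusted threshold.

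As a description, the R1881 response with ERRγ siRNA minus that with control siRNA was -0.78 ± 0.25 for CBLN2 and -0.66 ± 0.18 for LRRN1 (log2, SE). It was -0.15 for TGM3, -0.11 for CAMK2N1 and 0.08 for OPRK1. PLA2G2A and C11ORF92 get no value, since at least 1 R1881 group had no array that detected them. Apart from that of CAMK2N1, these values contain R1881 signals near background, where the log2 scale is set largely by the offset.

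Across the 12 arrays the members ran together, with Pearson correlations of 0.987 to 0.998 between pairs. The R1881 and vehicle arrays lay far apart for all of them, so these correlations describe that split. The gene most like CAMK2N1 outside the set was IRX3, a homeobox factor, with r = 0.998 over 12 arrays. BCHE was most like both TGM3 (0.998) and LRRN1 (0.997), and ST7 most like both CBLN2 (0.996) and PLA2G2A (0.998). BARD1, which encodes a partner of BRCA1, was most like OPRK1 (0.998), and COLEC12, which encodes a scavenger receptor, most like C11ORF92 (0.998). Each member had between 788 and 868 genes with r over 0.95.

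Genes related to the members by family or known role were then followed, from 7 lists of 125 genes, of which 56 were measured above the filter. With ERRγ siRNA 9 of the 56 rose and 17 fell in R1881, and with control siRNA 8 rose and 17 fell. Over all genes, 16.6% rose and 20.4% fell with ERRγ siRNA, and 17.7% rose and 22.3% fell with control siRNA. The median log2 change of the related genes was -0.15 with ERRγ siRNA and -0.14 with control siRNA, against -0.02 and -0.03 over all genes. None of the 56 was called between the siRNAs on average, while 4 had an unadjusted p under 0.05. The calls of both responses are from limma over all genes.

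The list around CAMK2N1 held 13 measured genes: calmodulin-dependent kinases, calmodulins and CAMK2N2, a CaMKII inhibitor like CAMK2N1. With ERRγ siRNA 3 rose and 4 fell, and with control siRNA 2 rose and 3 fell. CAMK2N2 rose by 0.53 with ERRγ siRNA (adjusted p = 0.00724 by limma), where 1 vehicle array detected it. With control siRNA it was at 0.09 and was not called. CAMK2B, a subunit of the kinase that CAMK2N1 inhibits, fell by 0.92 with ERRγ siRNA and fell by 1.20 with control siRNA (log2). PNCK, a neuronal calmodulin kinase, fell by 1.15 with ERRγ siRNA and fell by 1.01 with control siRNA. CAMKK2, a kinase upstream of AMPK and a known androgen target in prostate cancer, rose by 0.95 with ERRγ siRNA and 0.94 with control siRNA. CAMK1G rose by 0.66 with ERRγ siRNA, and with control siRNA it was at least 1.23-fold higher, not detected in vehicle (adjusted p = 0.0442). The list as a whole therefore held calls in both directions. Of the CaMKII subunits themselves, CAMK2B fell, and CAMK2G was called with neither siRNA (adjusted p = 0.0627 with ERRγ siRNA and 0.142 with control siRNA, by limma).

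Of 6 measured transglutaminases and proteins of the cornified envelope, 0 rose or fell with ERRγ siRNA by limma, and 1 had an unadjusted p under 0.05. With control siRNA 1 fell: EVPL, which encodes envoplakin, by 0.36 (adjusted p = 0.0364), against -0.30 with ERRγ siRNA (adjusted p = 0.081). The other 12 listed genes of this family were not measured above the filter.

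The partners of cerebellins gave 5 measured genes, of which 3 fell with ERRγ siRNA and 5 with control siRNA, and none rose. NLGN1, a postsynaptic neuroligin, was 1.80 lower with ERRγ siRNA (log2), and with control siRNA it was at least 3.34-fold lower, since no R1881 array detected it. NLGN2, another neuroligin, fell by 0.40 with ERRγ siRNA and fell by 0.66 with control siRNA. The list's median was -0.40 with ERRγ siRNA and -0.66 with control siRNA.

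Of 9 measured opioid receptors, ligands and G protein partners, 1 rose and 3 fell with ERRγ siRNA, and 1 rose and 2 fell with control siRNA. OPRL1, the nociceptin receptor, was at -1.28 with ERRγ siRNA and at -1.15 with control siRNA, a fall in both. GNAI2, an inhibitory G protein subunit, fell by 0.55 with ERRγ siRNA and fell by 0.67 with control siRNA. GRK2, a kinase that desensitizes G protein-coupled receptors, rose by 0.34 and 0.37.

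Among 9 measured membrane proteins with leucine-rich repeats, 1 rose and 2 fell with ERRγ siRNA, and 2 rose and 2 fell with control siRNA. SLITRK3, a synaptic adhesion protein, fell by 3.47 with ERRγ siRNA and fell by 3.31 with control siRNA (log2), and ranked 11th among all genes in both. LRIG3 was at least 1.80-fold lower with ERRγ siRNA and at least 1.50-fold lower with control siRNA, as no R1881 array detected it. LRIG1, a brake on receptor tyrosine kinases, rose by 1.32 and 1.42. LRRTM4 was at least 1.26-fold higher with control siRNA (adjusted p = 0.0158), and was not called with ERRγ siRNA (adjusted p = 0.126).

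Of 12 measured phospholipases A2 and enzymes of eicosanoid metabolism, 4 rose and 4 fell with ERRγ siRNA, and 3 rose and 3 fell with control siRNA. HPGD, which inactivates prostaglandins, rose by 2.86 with ERRγ siRNA and by 3.05 with control siRNA (log2). In the authors' table the HPGD change was 0.78 with ERRγ siRNA and 0.88 with control siRNA, so its size depended on the setting. PLA2G12A, another secreted phospholipase, rose by 0.46 and 0.86. LTA4H, which makes leukotriene B4, fell by 1.05 with ERRγ siRNA and fell by 0.86 with control siRNA. PLAAT3, a phospholipase and acyltransferase, fell on its brighter probe, at -0.82 with ERRγ siRNA and -1.16 with control siRNA, while a dimmer probe gave -0.43 and 0.18. HPGD and LTA4H, enzymes of prostaglandin breakdown and of leukotriene synthesis, thus moved in opposite directions.

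Of the factors and neighbours linked to the COLCA locus, 2 genes were measured, and POU2F1, an octamer-binding factor, fell by 0.50 with ERRγ siRNA and fell by 0.63 with control siRNA.

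**Figure D5:**
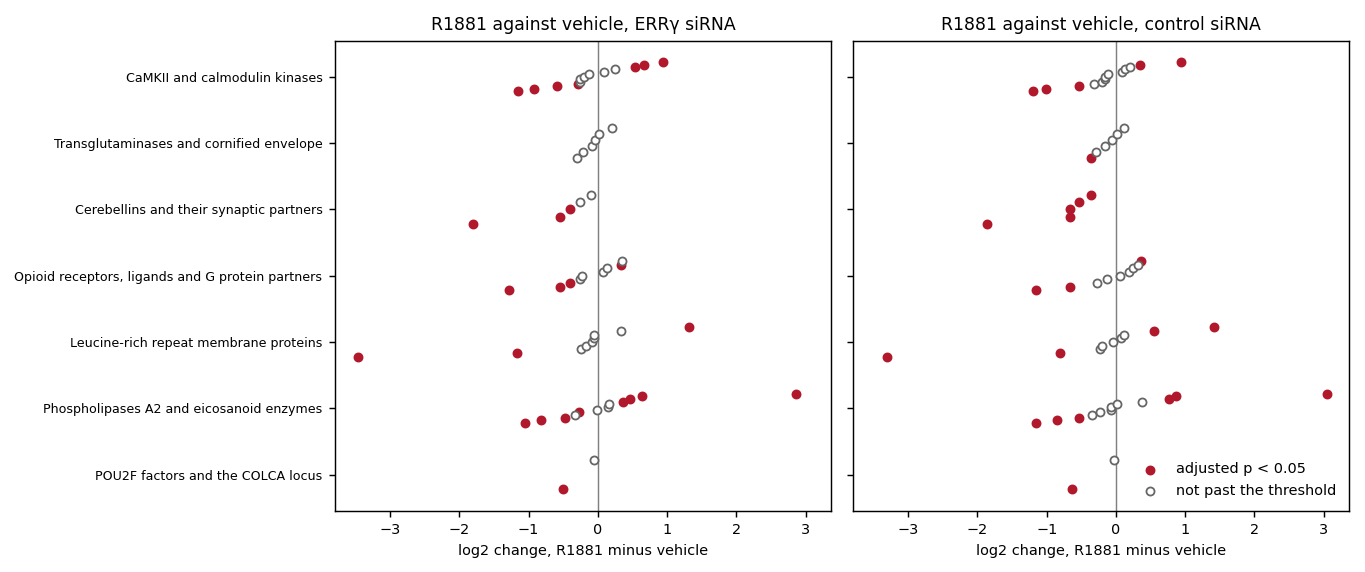
Log2 change, R1881 minus vehicle, of the 56 measured related genes in 7 lists, with ERRγ siRNA left and control siRNA right. Filled points passed an adjusted p under 0.05 and open points did not. SLITRK3, at -3.47 and -3.31, and HPGD, at 2.86 and 3.05, lie furthest from 0.

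Some of these smaller calls rested on single arrays. NLGN2 with ERRγ siRNA was lost without replicate 1 or 3 of ERRγ siRNA vehicle or replicate 2 or 3 of ERRγ siRNA R1881 (adjusted p up to 0.133). GRK2 with ERRγ siRNA was lost without replicate 1 or 3 of either ERRγ siRNA group (up to 0.0898), and with control siRNA without replicate 1 of either control siRNA group (up to 0.061). EVPL with control siRNA was lost without replicate 2 or 3 of either control siRNA group (up to 0.167). LRRTM4 with control siRNA was lost without replicate 1 or 3 of control siRNA vehicle or replicate 3 of control siRNA R1881 (up to 0.0696), and passed with ERRγ siRNA without replicate 1 of ERRγ siRNA R1881 (adjusted p = 0.00909). CAMK1G with control siRNA was lost when any control siRNA vehicle array, control siRNA R1881 replicate 1 or 3, ERRγ siRNA vehicle replicate 2 or 3, or ERRγ siRNA R1881 replicate 2 was left out (up to 0.136). In other settings, CAMK1G with control siRNA was also lost with an offset of 50, without background correction, in the authors' table and without the filter. NLGN2 with ERRγ siRNA was lost in the authors' table and without the filter, and LRRTM4 with control siRNA in the authors' table. EVPL with control siRNA was lost without the filter. With only the compared groups in the fit, EVPL was lost with control siRNA and passed with ERRγ siRNA (adjusted p = 0.0485). NLGN1, SLITRK3, HPGD, OPRL1, LRIG1, LTA4H, CAMK2B, PNCK and CAMKK2 kept their calls under both siRNAs in each setting and with each array left out. The sizes of the SLITRK3 and HPGD changes were smaller in the authors' table.

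The neighbours of the members on the chromosomes were chosen as a set after the data had been seen, as the nearest 2 protein-coding genes on each side in RefSeq. Of 28 neighbours 17 were measured, and 10 of them fell with each siRNA, while 1 rose with ERRγ siRNA and 2 with control siRNA. PLA2G2D rose with ERRγ siRNA, at 0.36, and STK35 and SNRPB, near TGM3, rose with control siRNA, at 0.37 and 0.42. The falls were not spread evenly over the members. All neighbours of LRRN1 (TRNT1, CRBN, SUMF1 and SETMAR) fell with both siRNAs, while no measured neighbour of TGM3 was called lower with either. Of all genes, 20.4% were called lower with ERRγ siRNA and 22.3% with control siRNA. The neighbours' median log2 change was -0.43 with ERRγ siRNA and -0.39 with control siRNA, and that of all genes was -0.02 and -0.03. NETO1, a partner of glutamate receptors that lies next to CBLN2, fell by 1.32 with ERRγ siRNA and fell by 0.84 with control siRNA. FBXO15, one gene further, fell by 1.51 with ERRγ siRNA and fell by 1.55 with control siRNA. CRBN, which encodes the cereblon substrate receptor and lies next to LRRN1, fell by 0.88 with ERRγ siRNA and fell by 0.99 with control siRNA. ARHGAP20, near C11ORF92, fell by 0.91 with ERRγ siRNA and fell by 0.64 with control siRNA. PLA2G2A and CAMK2N1 both lie on chromosome 1 with 6 protein-coding genes between them, of which 1 (PLA2G2D) was measured.

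Summed signals of some marker lists differed between R1881 and vehicle, and the brightest genes weigh most in each sum. Of 5 neuroendocrine markers CHGB and SYP were not detected on any array, and the summed background-subtracted signal of all 5, each by its brightest probe, was lower in R1881. It ran from 58.8 to 66.0 with ERRγ siRNA and R1881, from 129 to 157 with ERRγ siRNA and vehicle, from 42.0 to 53.6 with control siRNA and R1881, and from 138 to 178 with control siRNA and vehicle. ENO2 and INSM1 were detected on all 12 arrays. ENO2 was the brightest of the 5, with raw intensities of 119 to 253, against 103 to 117 for INSM1. The sum of 4 basal markers was low in every group, at 15.5 to 17.6 with ERRγ siRNA and R1881, 2.57 to 15.8 with ERRγ siRNA and vehicle, 7.27 to 19.5 with control siRNA and R1881, and 0 to 5.48 with control siRNA and vehicle. The sum of 5 stromal markers was higher in R1881: 784 to 908 against 412 to 473 in vehicle with ERRγ siRNA, and 605 to 714 against 404 to 524 in vehicle with control siRNA. The sum of 4 immune markers was likewise higher, at 168 to 177 against 34.9 to 39.2 in vehicle with ERRγ siRNA. With control siRNA it was 172 to 193 against 40.0 to 57.3 in vehicle. The brightest of the 4 was CD68 (raw 113 to 284). CD14 reached 107, CD3E was detected on 1 array, and PTPRC was undetected. The sum of 10 luminal markers was also higher in R1881: 15088 to 15649 against 5063 to 5552 in vehicle with ERRγ siRNA, and 13490 to 15349 against 4596 to 6383 with control siRNA. The part of these shifts in the falls of the members was not tested.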

How the data were processed

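The deposited table gave for each array a raw intensity and a detection p-value per probe, per the file headers. A second deposited table held the authors' normalized values, which their values place on a log2 scale. How the authors normalized, and on which platform, is not given in the sources used here. Background was then removed by the nec function of limma 3.58.1 (R 4.3.3) applied to the raw intensities, with an offset of 16 and its level taken from the detection p-values. Quantile normalization and log2 followed. The 92 spike-in probes were left out. A gene was represented by its brightest kept probe (21959 probes, 17121 genes), named through RefSeq accession (28588 probes), symbol (2514) or the deposited symbol (16221). The fit took all 12 arrays at once in limma with a mean per group, and adjusted p-values are Benjamini-Hochberg over all genes. The fit was tested on simulated data. Bounds take, per array, the higher of the lowest detected signal and the probe's own. All bounds are on values corrected with an offset of 16 and hold only for that offset. The number of arrays limits the precision. Members and lists were chosen with earlier results of these data known. In each list up to 2 called genes per direction, those with the largest log2 change with control siRNA, were named. PLA2G2D, CAMK2G, CAMK2N2 and the chromosomal neighbours were named after their values were seen. Replicate numbers did not pair the samples: over 18 same-numbered pairs, deviations from group means correlated at -0.258 to 0.127, and 1 pair was over 0.1. Alternatives were an offset of 50, no background correction, the authors' table, no filter, a stricter filter, the mean of probes, only the groups compared, a replicate block, and each array left out. The marker lists were summed without 2 of their genes, which are not reported here.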

Additional observations from a re-analysis of the deposited data

Results flagged for a closer look

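PLA2G2D, a secreted phospholipase A2 that lies near PLA2G2A, moved in opposite directions with R1881 under the 2 siRNAs. With ERRγ siRNA its normalized log2 signal was 5.53, 5.39 and 5.46 in R1881, against 4.98, 5.31 and 5.01 in vehicle. With control siRNA it was 5.03, 5.07 and 5.08 in R1881, against 5.65, 5.52 and 5.62 in vehicle. Every R1881 array lay above every vehicle array with ERRγ siRNA and below it with control siRNA, which held for 1 of the 71 related genes and neighbours screened. The responses were 0.36 with ERRγ siRNA (adjusted p = 0.00897) and -0.54 with control siRNA (adjusted p = 0.000542), both by limma over all genes. Their difference was 0.90 (95% interval 0.60 to 1.19), with an adjusted p of 0.118 by limma. No gene of 17121 passed that test of the difference, while 1890 had an unadjusted p under 0.05. Raw intensities of this probe were 109 to 136 over all 12 arrays, near background, and all 12 detected it. The cause was not tested.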

How the results depend on the processing

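The falls of the 7 genes kept their direction in every setting, and their size depended on the background. Their median log2 change, -4.17 with ERRγ siRNA and -4.04 with control siRNA, was -3.07 and -2.99 with an offset of 50, -2.44 and -2.36 without background correction, and -1.72 and -1.60 in the authors' table. The median signal left was 2.53% to 3.04% with single arrays left out. In vehicle 0 members were called between siRNAs, against 1 (CBLN2) with an offset of 50, without background correction or in the authors' table. The count of all genes called in vehicle, 45, was 441, 482 and 179 in those 3 settings, 26 without the filter, 125 with only the groups compared, and 1 (without control siRNA vehicle replicate 3) to 192 (without control siRNA R1881 replicate 1) with single arrays left out. The count averaged over treatments, 5, was 15, 14 and 11 in the same 3 settings, 0 without the filter and 0 to 9 with single arrays left out. With the replicate block those counts were 6 in vehicle and 1 on average. The block, whose numbers gave no sign of pairing the samples, changed no member's call. Signs near 0 turned: LRRN1 averaged over treatments was 0.019 without background correction and 0.039 in the authors' table. With single arrays left out, PLA2G2A ran from -0.019 to 0.053 and CBLN2 from -0.081 to 0.15 on average, OPRK1 in vehicle from -0.012 to 0.11, and CAMK2N1 in R1881 from -0.34 to 0.017. The cause was not tested, except that leaving out arrays means fewer samples. In R1881 signals near background limit the log2 values of 6 members.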
